A study of Mus musculus with 6 samples.

Results

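The Reg family antimicrobial lectins are described here across the epithelial cells of the mouse small intestine. The members are Reg1, Reg3a, Reg3b, Reg3g and Reg4, 5 of the 27998 genes in the count tables, taken by their symbols. All 5 had UMIs (unique molecular identifiers, 1 count per captured transcript) in each of the 6 libraries. The study profiled single epithelial cells of the small intestine of 8-week C57BL/6J mice with droplet 3' RNA sequencing. There were 3 wild-type libraries (WT-1 to WT-3) and 3 labelled Itgb7-/- (Itgb7 KO-1 to KO-3), which lack the β7 chain of the integrin that T cells use to hold on to epithelium. Its title asks whether such T cells direct the fate of intestinal stem cells. The labels name no sort, gate or treatment, and do not say whether a library is 1 animal. The p-values therefore measure the spread between libraries, which may be partly technical.

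Reg proteins are small secreted C-type lectin-like proteins. REG3G and REG3B are bactericidal lectins that keep bacteria away from the epithelial surface, and their genes are known to be induced by the microbiota through MyD88 and by IL-22 through STAT3. REG1 was first known from pancreas and regenerating tissue, REG3A is a further member of the bactericidal branch, and REG4 is a more distant member known from enteroendocrine and deep crypt secretory cells.

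The 4 genes Reg1, Reg3a, Reg3b and Reg3g lie in 1 cluster of 6 Reg genes on chromosome 6, which spans 98.2 kb (chr6:78370657-78468872, GRCm38). Reg3b (chr6:78370657-78373466) lies at one end on the plus strand and Reg3g (chr6:78466269-78468872) at the other on the minus strand. Reg3a (chr6:78380709-78383827) and Reg1 (chr6:78422711-78428667, 7 exons) lie between them, as do Reg3d and Reg2. Reg4 lies apart on chromosome 3 (chr3:98222156-98236748, plus strand, 6 exons). The promoters of 3 members are shown because Reg3b and Reg3g moved together in the results below and Reg1 moved the other way. Each runs from 250 bases before to 50 bases after the start of the RefSeq gene model on GRCm38.p6, 5′ to 3′ on the gene's strand. Capitals mark each match, on either strand, to the TATA box sequence TATAAA or to TTCNNNGAA, the core of STAT binding sites.
Reg3b, chr6:78370635-78370934, plus strand: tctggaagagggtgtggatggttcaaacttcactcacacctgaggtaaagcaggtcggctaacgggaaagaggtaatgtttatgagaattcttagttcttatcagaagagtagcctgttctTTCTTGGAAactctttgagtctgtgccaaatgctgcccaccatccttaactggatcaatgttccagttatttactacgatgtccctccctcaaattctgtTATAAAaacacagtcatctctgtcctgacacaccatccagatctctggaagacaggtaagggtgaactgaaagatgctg
Reg3g, chr6:78468825-78469124, minus strand: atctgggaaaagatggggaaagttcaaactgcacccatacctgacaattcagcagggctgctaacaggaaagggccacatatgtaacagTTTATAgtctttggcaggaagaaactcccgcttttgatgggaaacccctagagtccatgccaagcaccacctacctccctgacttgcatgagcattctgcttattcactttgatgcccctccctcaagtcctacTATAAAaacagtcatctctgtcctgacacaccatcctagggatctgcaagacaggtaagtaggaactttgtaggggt
Reg1, chr6:78425733-78426032, plus strand: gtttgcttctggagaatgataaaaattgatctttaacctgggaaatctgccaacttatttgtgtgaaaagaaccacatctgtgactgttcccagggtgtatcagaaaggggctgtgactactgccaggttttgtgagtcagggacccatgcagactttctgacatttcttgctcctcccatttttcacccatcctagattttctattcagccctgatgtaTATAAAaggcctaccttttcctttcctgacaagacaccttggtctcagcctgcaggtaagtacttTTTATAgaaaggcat
All 3 hold TATAAA on the gene's own strand close to the start, with its first base at position -29 in Reg3b, -27 in Reg3g and -30 in Reg1. The motif occurs in 13.6% of 32851 promoters of the same length, and in neither the Reg3a nor the Reg4 window. TTCNNNGAA, found in 8.3% of promoters, occurs in the Reg3b window alone among the 5 members, at position -129. The third motif searched, GATAAG, is held by 7.44% of promoters and was found in the windows of Reg3b and Reg4. The Reg3b TTCNNNGAA site matched on both strands at the same bases, and no other matches overlapped. The Reg3b and Reg3g windows were 70% identical with a longest shared run of 29 bases, against 52.7% to 61.3% identity and runs of 6 to 14 bases for the other 9 pairs.

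Coding sequences were 75.9% identical between Reg3b and Reg3g, 75% between Reg3a and Reg3b and 73.5% between Reg3a and Reg3g. Reg1 was 58.3% to 61.2% identical to the Reg3 genes. Over the last 300 bases of the transcript, where 3' reads fall, Reg3b and Reg3g were 62.3% identical and their longest shared run was 17 bases. The counting rule for reads that match several Reg genes was not given in the sources used here, so values of the Reg3 genes carry that uncertainty. The other genes of the cluster were close to undetected: Reg2 averaged 0.128 CPM (counts per 1000000 UMIs) and Reg3d 0.712 CPM over the 6 libraries.

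Before the members are described, the libraries and their labels need a word. Itgb7, the gene named in the labels, was found at 3, 4 and 1 UMIs for WT-1 to WT-3 and at 16, 28 and 11 UMIs for KO-1 to KO-3, so it was not lower where KO was the label. A 3' tag can lie outside the deleted part, so these counts check nothing. The files held 26153 cell barcodes with a median UMI count per library of 6079.5 to 22384, and 25070 cells were kept. WT-1 and KO-1 stood apart: their shallowest cells had 13621 and 7754 UMIs against 1417 to 2946 in the others, and markers of Paneth cells summed to 81990 and 50920 CPM against 2748 to 3725. Results are therefore also given without these 2 libraries. Epcam, an epithelial adhesion protein, was at 1435 to 1889 CPM. T-cell markers summed to 1.31 to 2.23 CPM, with 1 to 11 of the 14 measured at 0 in a library. Il22, Il17a and Ifng had no UMI in any library, which allows at most 0.0407 to 0.112 CPM. Of 10 pancreatic acinar markers, 6 or 7 had no UMI in each library and Clps made up nearly all of the rest, at 659 CPM in WT-1, 448 CPM in KO-1 and 19.8 to 28.4 CPM in the others. Across libraries 410 barcode sequences recurred.

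Cells were clustered with all Reg genes left out, and the 27 clusters were named from marker lists where the markers allowed. The classes were stem-like (3327 cells), transit-amplifying-like (6395), lower-villus enterocyte-like (4095), mature enterocyte-like (4088), goblet-like (4431), enteroendocrine-like (775), Paneth-like (226) and tuft-like (93), and 1640 cells stayed unnamed. UMIs were summed per library and class before any test.

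The 5 members made up 0.813% of all UMIs in WT-1, 0.235% in WT-2, 0.284% in WT-3, 0.439% in KO-1, 0.472% in KO-2 and 0.631% in KO-3. In the mature enterocyte-like cells their share was 0.835% to 3.04%. At the level of a whole library, fewer cells of a type and less RNA per cell cannot be told apart, so the members are described within classes. Within them 3 patterns stood out: Reg1 was highest in both enterocyte-like classes, Reg3a, Reg3b and Reg3g were highest in mature enterocytes, and Reg4 was a gene of secretory cells.

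**Figure D1:**
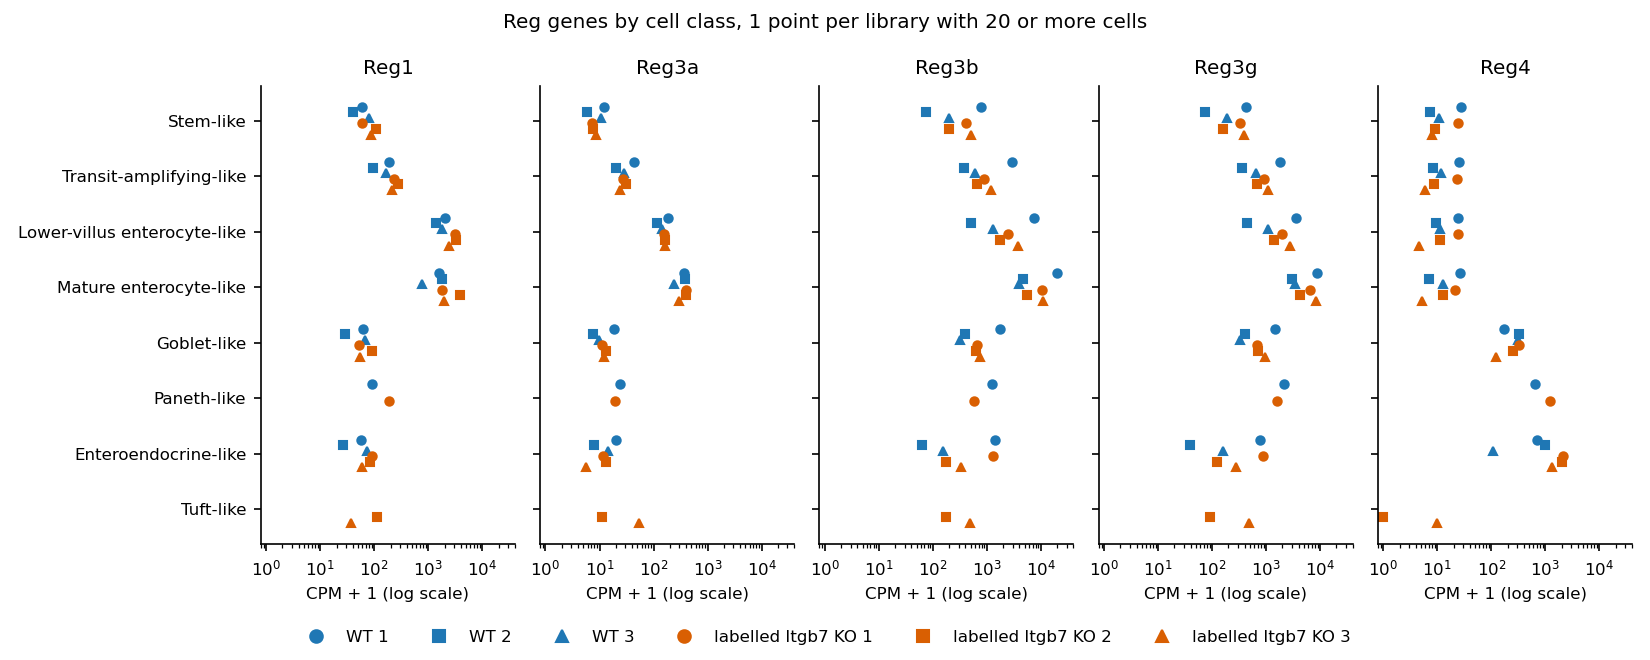
CPM + 1 on a log scale for the 5 Reg genes in each cell class, 1 point per library with 20 or more cells of the class (blue, WT; orange, labelled Itgb7 KO). Reg1 and the Reg3 genes sit highest in the 2 enterocyte-like classes, while Reg4 sits highest in the enteroendocrine-like and Paneth-like classes.

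Reg1 in lower-villus enterocyte-like cells was at 2048, 1411 and 1800 CPM in the WT libraries and at 3129, 3280 and 2460 CPM in those labelled KO. In mature enterocyte-like cells it was at 1582, 1770 and 766 CPM in WT and 1762, 3861 and 1910 CPM in KO. Transit-amplifying-like cells, which divide below the villus, held 93.4 to 273 CPM. Every enterocyte-like sum was above every sum of the dividing cells. Stem-like (38.7 to 105 CPM), enteroendocrine-like (25 to 87.9 CPM) and goblet-like cells (28.2 to 90.6 CPM) overlapped. Enterocyte-like cells held 82.9% to 91.6% of all Reg1 UMIs of a library.

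The edgeR quasi-likelihood test of each class against the mean of the other classes, with Benjamini-Hochberg adjustment over 13126 genes, called 32.7% of genes higher in mature and 31.4% higher in lower-villus enterocyte-like cells. Reg1, Reg3a, Reg3b and Reg3g were among them in both classes. Reg1 was 3.73 log2 units higher in mature (SE 0.14, adjusted p = 9.2e-25) and 4.03 higher in lower-villus cells (SE 0.14, adjusted p = 2.8e-25). Between these 2 neighbours Reg1 differed by a mean of 0.37 log2 units, higher in lower-villus cells in 4 of 6 libraries, which was within the spread (SD 0.60; exact sign-flip test, two-sided p = 0.188). Over the 25 comparisons of neighbours in the members' orders of level, no p could fall below 0.0312, the smallest that 6 libraries allow, which became 0.0781 after Benjamini-Hochberg adjustment. Differences between neighbouring classes given below as found in 6 of 6 libraries reached that value.

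Reg3a was the least abundant of the 4 members called higher in the enterocytes. Its level in mature enterocyte-like cells was 368, 387 and 237 CPM in WT and 391, 404 and 291 CPM in KO. In lower-villus cells it was 186, 113 and 140 CPM in WT and 156, 163 and 163 CPM in KO. Mature cells were above lower-villus cells in 6 of 6 libraries, by a mean of 1.16 log2 units. From lower-villus to transit-amplifying-like cells (19 to 41.7 CPM) the level was lower by a mean of 2.45 log2 units, again in 6 of 6, and below them the enteroendocrine-like, goblet-like and stem-like classes (4.66 to 18.8 CPM) did not separate. Against the mean of other classes Reg3a was 3.99 log2 units higher in mature enterocyte-like cells (SE 0.10, edgeR adjusted p = 1.2e-29) and 2.60 in lower-villus ones (SE 0.11, adjusted p = 2.1e-22).

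Reg3b, known for defence against Gram-negative as well as Gram-positive bacteria, was the most abundant member and the most variable one. Mature enterocyte-like cells held 19860, 4618 and 3922 CPM in WT and 10290, 5450 and 10900 CPM in KO. Lower-villus cells held 7411, 509 and 1286 CPM in WT and 2496, 1784 and 3688 CPM in KO. WT-1 was highest in both classes, with the other WT libraries below every KO library. Within each library mature cells were above lower-villus cells, by a mean of 1.90 log2 units, and these above transit-amplifying-like cells (371 to 2889 CPM) by 1.25, both in 6 of 6 libraries. Goblet-like cells held 1715, 398 and 322 CPM in WT and 655, 622 and 743 CPM in KO and did not separate from transit-amplifying-like cells (5 of 6 libraries, exact sign-flip p = 0.0938). The stem-like level was 72.3 to 784 CPM. Reg3b was 3.77 log2 units higher in mature cells than in the mean of other classes (SE 0.18, edgeR adjusted p = 7.8e-21), and 4.11 without WT-1 and KO-1.

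Reg3g, whose product binds peptidoglycan and kills Gram-positive bacteria, followed the same order at a lower level in all 12 sums of mature and lower-villus cells. It was at 8596, 3055 and 3413 CPM in mature cells of the WT libraries and at 6563, 4155 and 8500 CPM in those of the KO libraries. Lower-villus cells held 3589, 442 and 1087 CPM in WT and 1968, 1413 and 2801 CPM in KO. Mature cells were above lower-villus cells by a mean of 1.77 log2 units and these above transit-amplifying-like cells by 0.93, both in 6 of 6 libraries. Reg3g was 3.24 log2 units higher in mature cells than in the mean of other classes (SE 0.17, edgeR adjusted p = 1.7e-19). It was 3.86 without WT-1 and KO-1, a fit with no Paneth-like class among the others. In Paneth-like cells, which could be tested in WT-1 and KO-1 only, it was at 2121 and 1557 CPM and 2.54 log2 units above the mean of other classes (SE 0.28, adjusted p = 1.4e-09, 13.7% of genes called higher).

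The balance of the pair differed between cell types, a comparison chosen after its values were seen and given without a test. In enterocyte-like cells there were 0.445, 0.68 and 0.863 Reg3g UMIs per Reg3b UMI in WT and 0.674, 0.769 and 0.774 in KO. In goblet-like cells, the mucus producers, there were 0.862, 1.03 and 1.03 in WT and 1.03 to 1.29 in KO, above the enterocyte-like ratio of the same library in 6 of 6. In Paneth-like cells the ratio was 1.73 in WT-1 and 2.71 in KO-1, and it was above the enterocyte-like one in 5 of 6 libraries, 4 of which had under 20 such cells. Transit-amplifying-like cells, at a mean of 0.941, and stem-like cells, at 0.804, were also above the enterocyte-like ratio in 6 of 6. Enteroendocrine-like cells, at 0.736, were above it in 4 of 6, so a higher ratio was not particular to goblet-like and Paneth-like cells.

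**Figure D2:**
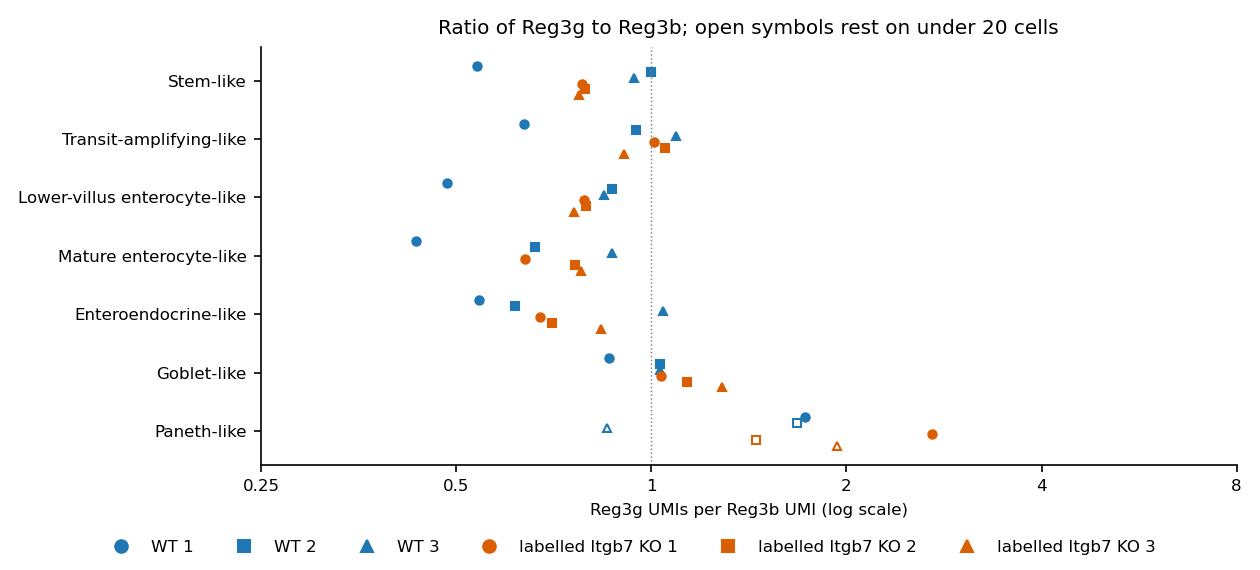
Reg3g UMIs per Reg3b UMI on a log scale, 1 point per library and cell class; open symbols rest on under 20 cells. Goblet-like points lie right of the enterocyte-like points of the same library. Among the filled points the Paneth-like ones of WT-1 and KO-1 lie furthest right, at 1.73 and 2.71.

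Single cells, each thinned to 3000 UMIs, showed how unevenly the members were spread. In mature enterocyte-like cells Reg3b and Reg3g varied together, with a median Spearman rho of 0.70 over the 6 libraries (0.61 to 0.83). These points share a library, and the counts of both genes depend on the same captured cell. The rho was 0.56 in lower-villus and 0.43 in goblet-like cells. Reg3b and Reg1 were weakly opposed in mature cells (median -0.21), and Reg1 and Reg3a were near 0 (0.06). A cell held up to 350 UMIs of Reg3b, 197 of Reg3g and 210 of Reg1 among its 3000. The richest 10% of mature cells carried 69 to 84.6% of Reg1 UMIs but 28.4 to 45.6% of Reg3g UMIs.

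Reg4 followed another set of cells. Enteroendocrine-like cells, the hormone producers, held 703, 962 and 107 CPM in WT and 2092, 2003 and 1341 CPM in KO. Goblet-like cells held 168, 325 and 305 CPM in WT and 327, 251 and 120 CPM in KO. Paneth-like cells held 628 CPM in WT-1 and 1221 CPM in KO-1. The stem-like, transit-amplifying-like and enterocyte-like classes, at 3.59 to 25.9 CPM, lay below every goblet-like value. Goblet-like cells were 4.24 log2 units above stem-like cells, the next class in the order, in 6 of 6 libraries. Enteroendocrine-like cells were 1.88 log2 units above goblet-like ones, but in 5 of 6 libraries and within the spread (SD 1.79; exact sign-flip p = 0.0625).

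In the edgeR test against the mean of other classes Reg4 was higher by 4.81 log2 units in enteroendocrine-like cells (SE 0.29, adjusted p = 2.2e-17, where 23.4% of genes were called higher). The value was 2.88 in goblet-like cells (SE 0.33, adjusted p = 9.9e-10, where 26% were) and 6.24 in Paneth-like cells (SE 0.40, adjusted p = 2.5e-16, from 2 libraries). Without WT-1 and KO-1 the enteroendocrine-like value was 6.19 and the goblet-like value 4.41. That fit had no Paneth-like class, which is high in Reg4, among the other classes, so its values are not comparable with the first ones.

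Most of the enteroendocrine Reg4 sat in 1 small cluster, number 25, whose leading genes are Tac1 (substance P precursor), Chgb and Chga (granins of secretory granules) and Tph1 (serotonin synthesis). It held 14.2% to 31% of a library's enteroendocrine-like cells and 82.7% to 99.4% of their Reg4 UMIs. The level there was 2634, 7533 and 1019 CPM in WT and 12910, 16410 and 5409 CPM in KO, on 9, 28, 17, 18, 37 and 57 cells. Cluster 22, which expresses the progenitor factor Neurog3, held 10.9 to 31.9 CPM. Cluster 23, led by Gcg and Cck, averaged 8.68 ± 11.9 CPM in WT and 64.6 ± 90.7 CPM in KO (SD, n = 3).

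Within cluster 25 the gene was close to on or off. Of its 166 cells, 111 had no Reg4 UMI, 14 had 1 to 9, and 41 had 10 or more and carried 99.4% of the cluster's Reg4 UMIs. The richest cell held 1180 Reg4 UMIs, 14.8% of all its UMIs. The 41 cells were 3, 6 and 2 in the WT libraries and 5, 12 and 13 in the KO libraries. Compared with the other 125 cells of the cluster, and as a description only, they had more Chga (11610 against 2821 CPM) and less Neurog3 (7.92 against 478 CPM). Tac1 (4079 against 4764 CPM) and Tph1 (879 against 926 CPM) were alike, and the median UMI count was 3725 against 4108.

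Among goblet-like cells Reg4 was highest in cluster 4, led by Ccl9, Rnase1 and Mmp7, in which goblet and Paneth markers tied. It was at 572, 633 and 566 CPM in WT and 830, 565 and 264 CPM in KO, with KO-3 lowest. Here 540 of 1305 cells had no UMI, 516 had 1 to 9 and 249 had 10 or more, so the level was more graded than in cluster 25.

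**Figure D3:**
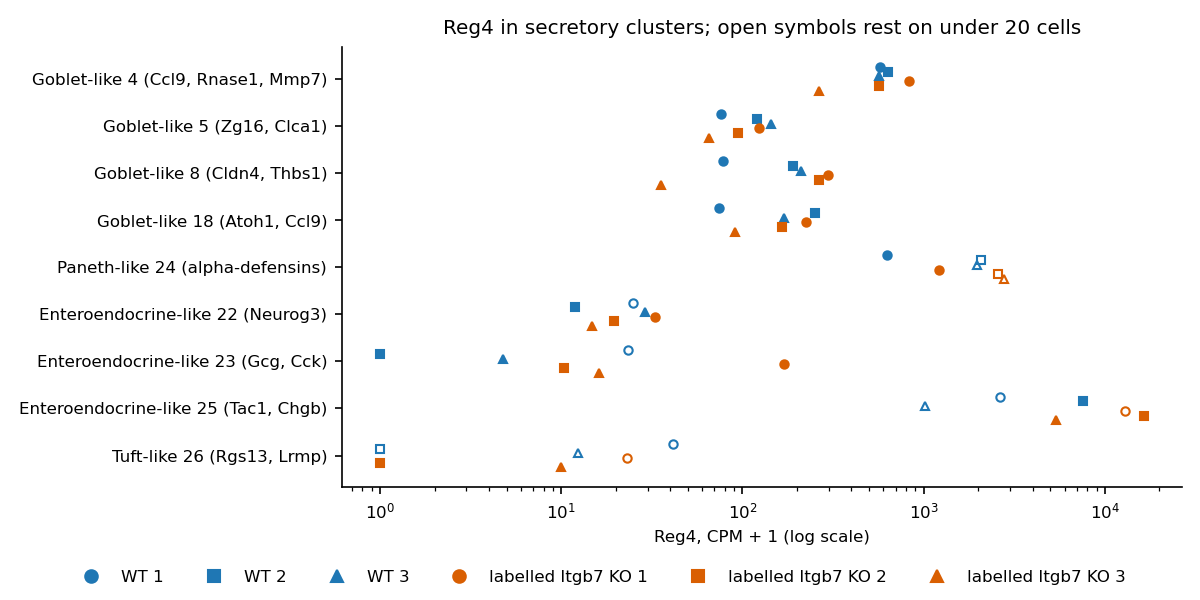
Reg4 as CPM + 1 on a log scale in each secretory cluster, 1 point per library; open symbols rest on under 20 cells. Cluster 25 reaches furthest right, at 1019 to 16410 CPM, far from the other 2 enteroendocrine-like clusters. Its lower end overlaps the Paneth-like cluster 24, which was at 1221 CPM in KO-1. Goblet-like cluster 4 lies right of the other goblet-like clusters of the same library.

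After thinning to 3000 UMIs, 15.3% to 29.5% of goblet-like cells had a Reg4 UMI (22.5% to 64.5% before thinning) against 1.23% to 7.07% of enterocyte-like cells. Reg1 was found in 45.1% to 60.9% of thinned enterocyte-like cells and in 7.74% to 22.1% of goblet-like cells, and the part of free RNA in that share was not tested. Median depths of the classes before thinning were 5972 to 20680 UMIs for goblet-like and 6171 to 20950 for enterocyte-like cells.

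The position of an enterocyte along the intestine was read from 2 genes. Fabp6, the ileal bile acid binding protein, marks the distal end and Apoa1, an apolipoprotein of fat absorption, the proximal part. Cells were Fabp6-high or Apoa1-high where the 2 genes' levels per 10000 UMIs, plus 1, differed by at least 1 log2 unit. Of 8183 enterocyte-like cells 998 were Fabp6-high, 4944 Apoa1-high and 2241 between, and 889 lay within 0.25 of a limit. The Fabp6-high groups held 107, 180 and 299 cells in WT and 91, 137 and 184 in KO. They were 89.6% mature enterocyte-like, against 48.2% of the Apoa1-high cells, and 116 rested on a single Fabp6 UMI.

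Reg1 was highest in the Apoa1-high enterocytes, and Reg3b and Reg3g were highest in the Fabp6-high ones. In Apoa1-high cells Reg1 was at 2574, 2181 and 1725 CPM in WT and at 3058, 4231 and 2891 CPM in KO. In Fabp6-high cells it was at 150, 94.1 and 218 CPM in WT and at 251, 259 and 756 CPM in KO. The 2 ranges did not overlap, in a comparison where 32% of all genes were called, and the within-library ratio ran from 3.82-fold in KO-3 to 23.2-fold in WT-2. With a limit of 2 log2 units Reg1 in Fabp6-high cells was at 69.9, 81.6 and 123 CPM in WT and 56.2, 142 and 43.3 CPM in KO. Under that limit KO-3 was the lowest library instead of the highest.

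Reg3b in Apoa1-high cells was at 14710, 1953 and 2105 CPM in WT and 5962, 3652 and 7230 CPM in KO. In Fabp6-high cells it was at 20300, 10730 and 6070 CPM in WT and 14220, 8121 and 12420 CPM in KO. Each library was higher in the Fabp6-high group, but by 1.38-fold in WT-1, whose Apoa1-high cells were already high, and by 5.49-fold in WT-2. Reg3g moved alike, from 6284, 1435 and 1800 CPM in WT and 3932, 2812 and 5264 CPM in KO to 9062, 6221 and 4749 CPM and 8343, 5664 and 9876 CPM. Reg3a went the other way by a small step, from 356, 329 and 223 CPM in WT and 342, 347 and 291 CPM in KO to 229, 243 and 176 CPM and 265, 234 and 150 CPM. Reg4 stayed at 3.48 to 26.3 CPM in both groups. The between cells held less Reg3b than the Apoa1-high cells of each library, 9560, 1181 and 1296 CPM in WT and 2477, 3175 and 4339 CPM in KO. Reg3a averaged 117 CPM there, below both groups, whereas Reg1, at 1494 CPM, lay between them. The median level of both Fabp6 and Apoa1 was 0 in these cells, so they do not show a graded change along the intestine.

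**Figure D4:**
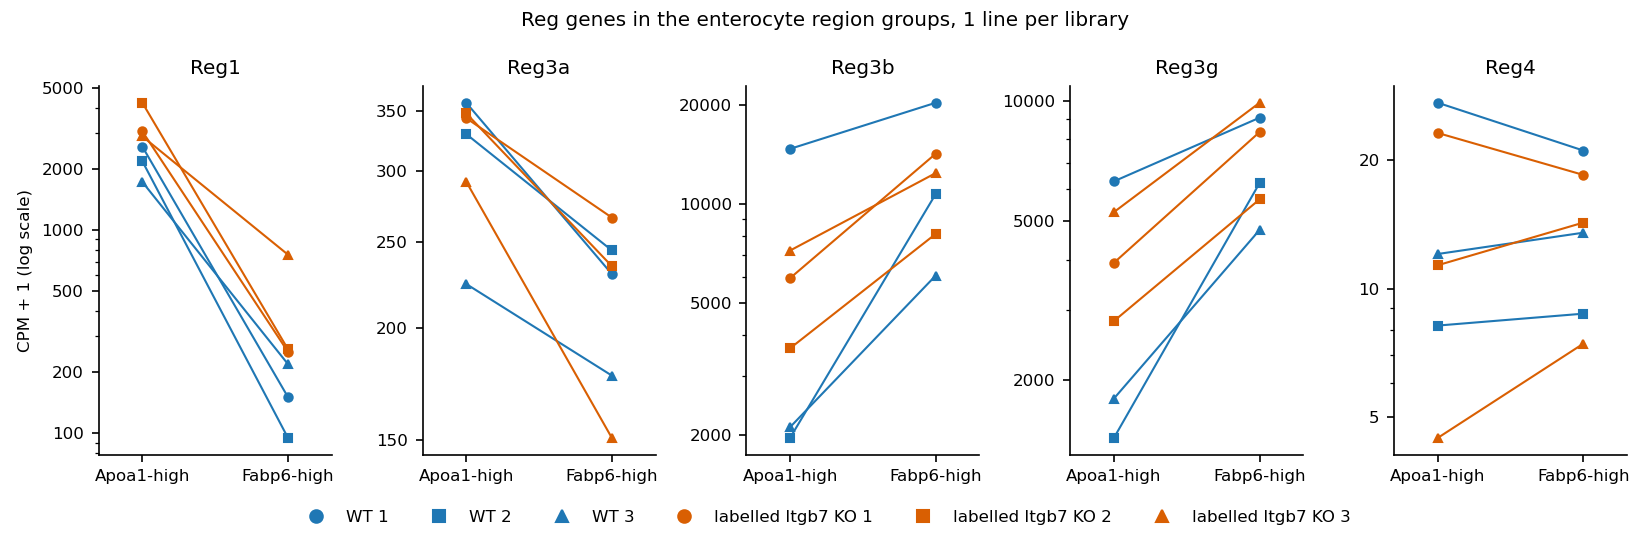
CPM + 1 on a log scale in the Apoa1-high and Fabp6-high enterocyte groups, 1 line per library, a separate scale per gene. All 6 lines fall for Reg1 and Reg3a and all 6 rise for Reg3b and Reg3g, with the flattest Reg3b line in WT-1.

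The edgeR quasi-likelihood test with the library as a block called 3288 of 10274 genes between the groups, 32% (DESeq2 called 2410), 13.9% higher and 18.1% lower in Fabp6-high cells. Reg3b was higher by 1.21 log2 units (SE 0.13, adjusted p = 4.2e-08) and Reg3g by 1.12 (SE 0.10, adjusted p = 2.8e-09). Reg1 fell by 3.50 (SE 0.18, adjusted p = 3.7e-14) and Reg3a fell by 0.57 (SE 0.05, adjusted p = 3.0e-09). Reg4 was at -0.12 (SE 0.14, adjusted p = 0.55). For the 4 called members the direction was the same in 6 of 6 libraries (exact sign-flip test, two-sided p = 0.0312, the smallest possible).

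Since the groups differed in maturity, the test was repeated within mature enterocyte-like cells alone. There the values were -4.73 for Reg1, -0.98 for Reg3a, 0.78 for Reg3b and 0.71 for Reg3g, all 4 called. Without WT-1 and KO-1 they were -3.29, -0.57, 1.43 and 1.31 (edgeR adjusted p at most 2.1e-09). Reg1 was absent from 66.9% to 85.6% of thinned Fabp6-high cells and from 35.3% to 45.8% of Apoa1-high cells. In the Apoa1-high cells of each library the richest 10% of cells carried 55.4% to 61.8% of the Reg1 UMIs. Reg3b and Reg3g varied together from cell to cell within both groups, with a median rho of 0.68 in Fabp6-high and 0.66 in Apoa1-high cells.

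Enterocytes mature as they climb the villus, and the cells of each library were placed on that axis by tip genes against lower-villus genes and divided into 5 bins of equal cell number. From the lowest to the highest bin Reg3a differed by 0.83 log2 units (higher in 5 of 6 libraries, exact sign-flip p = 0.0625) and Reg3g by 0.38 (5 of 6, p = 0.0625). Reg3b differed by 0.38 (5 of 6, exact p = 0.281), Reg1 by -0.37 (higher in 3 of 6, p = 0.25) and Reg4 by 0.15 (4 of 6, p = 0.344). Mean Reg3a was 167 ± 34.7 CPM in the lowest and 301 ± 75.6 CPM in the highest bin (SD, n = 6). None of the 5 passed a threshold of 0.05.

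The comparison of the WT libraries with those labelled Itgb7 KO asks whether loss of the β7 integrin changed these genes. In no class or region group did a member pass the edgeR test: 0 of 50 member tests were called, 7 had an unadjusted p under 0.05, and DESeq2 called 1. A paired edgeR fit over same-numbered libraries called 0 members, with 11 at an unadjusted p under 0.05. The 50 tests are not separate, since the region groups and the sums over all cells hold the same cells as the classes. No share of all genes at an unadjusted p under 0.05 is set beside the 7 and the 11, so neither is read as a result. The design held few calls for any gene. In all enterocyte-like cells 0.0088% of 11361 genes were called (1 gene; DESeq2 10). The share called was 0.00742% over the whole epithelium, 0.00955% in stem-like, 0.009% in goblet-like and 0.00943% in mature cells. It was 0% in transit-amplifying-like, enteroendocrine-like, lower-villus, Fabp6-high and Apoa1-high cells, the last 4 with 3, 9, 6 and 6 genes called by DESeq2.

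Reg1 stood furthest from 0 among the members of the enterocytes. In all enterocyte-like cells it was at 1787, 1603 and 1336 CPM in WT and at 2531, 3601 and 2223 CPM in KO. The groups did not overlap, with means of 1575 ± 227 and 2785 ± 723 CPM (SD, n = 3), a 1.77-fold difference. The exact permutation p was 0.1, the smallest that 3 against 3 allow and the value of any groups without overlap. The test was among 100 such tests on the members, many of which share cells, and adjustment over them left none called. Some groups would separate by chance among so many tests, so a lack of overlap is not read as a result. The edgeR value was 0.83 log2 units (SE 0.21, unadjusted p = 0.0041), with an adjusted p of 0.90. It was 0.76 (SE 0.19) in lower-villus and 0.86 (SE 0.38) in mature cells, and 1.01 in all enterocyte-like cells without WT-1 and KO-1 (adjusted p = 0.19). The DESeq2 call was Reg1 in the sum of all epithelial cells (0.93 log2 units, DESeq2 adjusted p = 0.040), where edgeR gave an adjusted p of 0.95, or 0.029 without WT-1 and KO-1. That sum mixes classes, so the share of enterocyte-like cells and the level per cell cannot be told apart in it. The share of all genes called in those fits is not set beside these Reg1 calls, so they are not read as results. Enterocyte-like cells were 750 of 2523, 1453 of 4741 and 1775 of 4732 epithelial cells in WT. In KO they were 677 of 2471, 2023 of 5056 and 1505 of 3907.

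In Apoa1-high cells the Reg1 groups did not overlap either, and the edgeR value was 0.65 (SE 0.21, adjusted p = 0.91). In Fabp6-high cells the value was 1.43 (SE 0.44, adjusted p = 0.99), but -0.24 with a limit of 2 log2 units. It passed at 1.42 without a filter on low counts (edgeR adjusted p = 0.00015). The share of all genes called in that fit is not set beside it, so this call is not read as a result. The share of thinned enterocyte-like cells with a Reg1 UMI was 49 ± 3.71% in WT and 57 ± 3.47% in KO (SD, n = 3, exact permutation p = 0.1), while without thinning it was 75.5% and 75.8%.

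**Figure D5:**
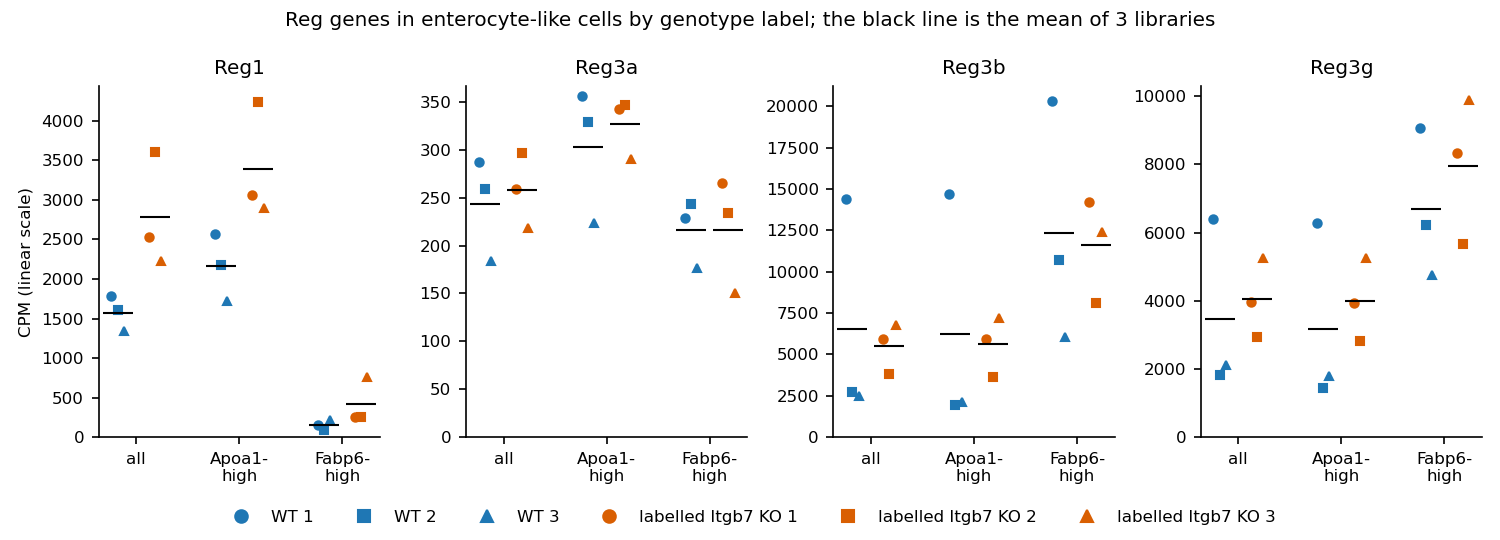
CPM on a linear scale for 4 Reg genes in all, Apoa1-high and Fabp6-high enterocyte-like cells, 1 point per library, with the mean of 3 libraries as a line. Reg1 points of the libraries labelled Itgb7 KO lie above the WT points, whereas for Reg3b WT-1 lies far above the other WT libraries.

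Reg3b in all enterocyte-like cells was at 14370, 2703 and 2469 CPM in WT and 5905, 3809 and 6799 CPM in KO. WT-1 lay above every KO library and the other WT libraries below every KO library. The edgeR value was -0.27 (SE 0.69, adjusted p = 0.96), but 1.16 without WT-1 (adjusted p = 0.98) and 0.27 with the replicate block over all 6 libraries (adjusted p = 0.85), so its sign changed with 1 library and with the block. Reg3g was at 6388, 1837 and 2131 CPM in WT and 3978, 2929 and 5261 CPM in KO, with the same library on top and an edgeR value of 0.22 (SE 0.51, adjusted p = 0.95). Reg3a was at 288, 259 and 183 CPM in WT and 259, 296 and 218 CPM in KO, with overlapping groups and 0.09 (SE 0.21, adjusted p = 0.95). The Paneth markers were also highest in WT-1 and KO-1, and their part in these values was not tested.

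Reg4 in enteroendocrine-like cells was higher in each library labelled KO than in each WT library, 591 ± 439 against 1812 ± 410 CPM (SD, n = 3; 3.07-fold; exact permutation p = 0.1). This test was also among the 100 exact tests on the members, none of which was called after adjustment. The edgeR value of 1.55 log2 units (SE 0.63, unadjusted p = 0.034) had an adjusted p of 0.999. It was 1.93 with the replicate block (adjusted p = 0.078), and 1.06 with groups of the sample serial numbers as a block, a fit in which it passed (edgeR adjusted p = 0.0038). That Reg4 call is not read as a result, since the share of all genes called in the fit is not set beside it. In cluster 25, which held most of this RNA on 9 to 57 cells, the groups overlapped (exact permutation p = 0.2). Cells with 10 or more Reg4 UMIs carried 98.6% to 100% of the cluster's Reg4 UMIs in each library. They were 3, 6 and 2 cells in WT and 5, 12 and 13 in KO, so these levels rested on few cells. The richest cell held 528, 366 and 58 of 822, 1115 and 98 enteroendocrine-like Reg4 UMIs in WT. In KO it held 1180, 374 and 202 of 3308, 2443 and 863. In goblet-like cells Reg4 differed by -0.17 (SE 0.36, edgeR adjusted p = 1.0), and 0.009% of genes were called there.

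Whether the genotype difference depended on region was tested by an interaction term. It was 0.64 for Reg1 (SE 0.36), -0.14 for Reg3a (SE 0.11), -0.44 for Reg3b (SE 0.26), -0.37 for Reg3g (SE 0.20) and 0.09 for Reg4. No member passed the edgeR test (adjusted p at least 0.99) nor an unadjusted p of 0.05. Without a filter on low counts the terms of Reg1 (0.65), Reg3b (-0.43) and Reg3g (-0.36) passed. Of all 10274 genes, 0 (0%) were called, 482 had an unadjusted p under 0.05, and DESeq2 called 0. Without WT-1 the interaction was -0.94 for Reg3b (edgeR adjusted p = 0.012) and -0.77 for Reg3g (adjusted p = 0.0062). Without WT-2 it was 0.04 and 0.01. The share of all genes called is not set beside the calls without the filter or without WT-1, so they are not read as results.

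Genes that act with the Reg family were read from 6 lists of 74 genes, chosen with earlier results of these data known. Between the region groups 45 were tested and 13 called (edgeR; DESeq2 9), near the 32% of all genes. Of 8 tested genes known to respond to IL-22 or STAT3, 3 were higher in Fabp6-high cells: Duox2 (2.05 log2 units), an oxidase that makes hydrogen peroxide at the epithelial surface, its maturation factor Duoxa2 (1.98) and Tifa (0.97), an adaptor of innate sensing. Il18 (-1.67), an epithelial cytokine, and Pigr (-0.39), which carries IgA into the lumen, were lower. The list's median was 0.08, against 0.00 for all genes.

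Of 16 tested secreted defence proteins, 4 fell and none rose (median -0.10): Il18 and Pigr again, Lypd8 (-0.43), which keeps flagellated bacteria from the mucosa, and Muc2 (-0.17), the goblet mucin, which DESeq2 did not call. Of 10 receptors and signal carriers of IL-22 and STAT3, Jak1 (-0.44) and Jak2 (-0.45) fell (median -0.17), of which DESeq2 called Jak1. Of 12 tested Toll-like receptor and MyD88 genes, Tlr1 (0.99) and Ikbkb (0.29) rose and the IκB family genes Nfkbiz (-0.45) and Nfkbia (-0.24) fell (median 0.04). DESeq2 called neither of these rises. Of 3 tested proposed Reg receptors and partners none was called (0 at an unadjusted p under 0.05, DESeq2 0), and none of the 8 cytokines passed the filter.

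Between WT and libraries labelled KO, 47 of the 74 genes were tested in all enterocyte-like cells and 0 were called by edgeR (2 at an unadjusted p under 0.05; DESeq2 0). The medians were -0.90 for the secreted defence proteins, which include Paneth cell products, 0.06 for IL-22 and STAT3 signalling, 0.35 for the responding genes and -0.06 for Toll-like receptor signalling, against 0.00 for all genes.

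Over the 40 sums of class and library, genes with a mean of at least 20 CPM were ranked by their Pearson correlation with each member on log2(CPM + 1). These sums share libraries and depth, and the order is a description over 5205 genes. For Reg1 the nearest were Mpp1 (0.953), Mogat2 (0.952), Alpi (0.948), Slc26a6 (0.943) and Hkdc1 (0.939). For Reg3a they were Dpep1 (0.973), Mep1b (0.972), Slc51b (0.967), Il18 (0.967) and Slc51a (0.963). Alpi, Mep1b and Dpep1 encode brush border enzymes, and Slc51a and Slc51b form the basolateral bile acid exporter of enterocytes.

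Reg3b was nearest to Reg3g (0.97), and outside the family to Mep1b (0.825), Dpep1 (0.822), Slc51a (0.815), Apol10a (0.815) and Gda (0.812). Reg3g was nearest outside the family to Clec2h (0.79), Gsta1 (0.784), Mep1b (0.781), Apol10a (0.779) and Slc6a20a (0.775). No gene outside the family came as close to either as they came to each other. Reg4 was nearest to Rnase1 (0.89), Ffar2 (0.884), Ang (0.877), Mmp7 (0.849) and 5330417C22Rik (0.839), with the secreted ribonucleases Rnase1 and Ang and the matrix protease Mmp7 among them.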

How the data were processed

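Reads were demultiplexed with bcl2fastq 2.17.1.14 and counted with Cell Ranger 2.1.1 on mm10, and Seurat was used, per the submitters' processing notes. The deposited files hold whole UMI counts per gene and cell barcode. Here barcodes with at least 500 genes, 1000 UMIs and at most 25% mitochondrial UMIs were kept, and the highest doublet scores were removed at 0.8% per 1000 barcodes (977 cells; Scrublet's own threshold marked 94). Clustering (scanpy 1.11.5, 2000 variable genes without Reg genes, 30 components, Leiden resolution 1.5) corrected for library. Counts were summed per library and class with at least 20 cells. Sums were tested with edgeR 4.0.16 (R 4.3.3; TMM, filterByExpr, quasi-likelihood, Benjamini-Hochberg over all genes tested) at 0.05, with DESeq2 1.42.0, other filters, blocks, region limits, thinning and left-out libraries as alternatives; single values were tested with exact tests. The fits were also run on simulated counts without library effects and with the spread typical of genes at their level. That run does not show how the fits perform for members as variable as Reg3b. Libraries were of 28475253 to 76133693 UMIs, but single sums could be small, such as 7 to 48 Reg4 UMIs per library in Fabp6-high cells. Counting error was not compared with library spread. The main genotype tests were unpaired. A fit with the replicate number as a block was an alternative: same-numbered libraries deviated together (r = 0.663, 0.286 and 0.28), but so did WT-2 with KO-3 (0.471) and WT-3 with KO-2 (0.261), so only the libraries numbered 1 stood apart as a pair. The named genes were all members in each class and region, Reg2, Reg3d, Itgb7, up to 4 called genes per list with the smallest adjusted p, and the 5 nearest genes. The members and lists were chosen with earlier results of these data known. Groups came from the labels. Paneth-like and tuft-like cells were not fitted by genotype with edgeR or DESeq2, because most libraries held under 20 such cells. They were among the 100 exact tests, on as few as 5 Paneth-like and 7 tuft-like cells in a library.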

Additional observations from a re-analysis of the deposited data

Results flagged for a closer look

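The step of Reg3b from lower-villus to mature enterocyte-like cells was 3.18 log2 units in WT-2, against 1.42 to 2.04 in the other 5 libraries, and the gap exceeded Dixon's 95% limit for 6 values. The same step of Reg3g was 2.79 in WT-2 and 1.26 to 1.74 in the others. Chance alone gives such a flag in about 1 in 20 groups of values, and 14 groups were examined.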

How the results depend on the processing

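The 50 values gave 568 pairs of a value with an alternative setting. Of these pairs 506 kept their direction and side of the threshold, 50 reversed, 12 newly passed and 0 lost a call. The region calls of Reg1, Reg3a, Reg3b and Reg3g and the class calls kept both under each setting run. The cause of the changes below was not tested.

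With the replicate block, Reg3b (log2 KO over WT) was 0.27 in all enterocyte-like, 0.021 in Fabp6-high, 0.52 in Apoa1-high and 0.70 in lower-villus cells, Reg3a was -0.029 in Fabp6-high cells, and 3, 2 and 9 genes were called in Fabp6-high, goblet-like and enteroendocrine-like cells. It changed no other member's call. With groups of the sample serial numbers as a block, Reg3a was -0.052 in all, -0.10 in Fabp6-high and -0.035 in Apoa1-high cells, Reg3b 0.24 in Apoa1-high and 0.60 in lower-villus cells, and Reg4 in enteroendocrine-like cells 1.06 (adjusted p = 0.0038); 6, 32, 52 and 65 genes were called in all enterocyte-like, Fabp6-high, goblet-like and enteroendocrine-like cells.

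DESeq2 called 10, 6, 6, 13 and 3 genes in all enterocyte-like, Fabp6-high, Apoa1-high, goblet-like and enteroendocrine-like cells. Without a filter on low counts the calls were 38 (Fabp6-high), 1 (Apoa1-high), 4 (goblet-like), 3 (enteroendocrine-like) and 20 (interaction); Reg1 in Fabp6-high cells (1.42) and the interactions of Reg1 (0.65), Reg3b (-0.43) and Reg3g (-0.36) passed, and Reg3a in Fabp6-high cells was -0.0092. Thinned goblet-like cells gave 0 genes. Without thinning the share of cells with Reg3a differed by -6.51 percentage points. Classes made without library correction gave Reg3b 1.69 in lower-villus cells.

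The next settings were added after seeing the data. A region limit of 2 gave Reg1 -0.24 and Reg3b 0.014 in Fabp6-high cells, a Reg4 region value of 0.024, a Reg1 interaction of -0.97 and 1 interaction gene. Mature cells alone gave a Reg1 interaction of -0.68. Without WT-1 and KO-1, Reg3b was 1.08, 0.29, 1.47 and 1.64 in all enterocyte-like, Fabp6-high, Apoa1-high and lower-villus cells, Reg3a -0.14 in Fabp6-high cells, the Reg4 region value 0.22, and the interactions of Reg3b -1.05 and Reg3g -0.82; 10, 3, 30 and 3 genes were called in Fabp6-high, goblet-like and enteroendocrine-like cells and for the interaction.

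Leaving out 1 library at a time, values ran as follows. In all enterocyte-like cells they were -0.093 to 0.28 for Reg3a, -0.67 to 1.16 for Reg3b and -0.10 to 1.10 for Reg3g, with 0 to 1 genes called. In Fabp6-high cells they were -0.23 to 0.21 for Reg3a and -0.45 to 0.52 for Reg3b (0 to 2 genes). In Apoa1-high cells they were -0.077 to 0.30 for Reg3a, -0.63 to 1.54 for Reg3b and -0.052 to 1.38 for Reg3g. In lower-villus cells they were -0.75 to 1.61 for Reg3b and -0.22 to 1.48 for Reg3g. Reg4 in goblet-like cells was -0.52 to 0.13 (0 to 3 genes) and its region value -0.17 to 0.070. Interactions were -0.048 to 1.15 for Reg1, -0.94 to 0.041 for Reg3b and -0.77 to 0.011 for Reg3g (0 to 4 genes). Shares of enterocyte-like cells differed by -6.99 to 14.4 points for Reg3b and -3.05 to 15 for Reg3g. Depth limits Reg2, Reg3d and Reg4 outside secretory cells, and Paneth-like cells rest on 2 libraries.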
